A study of Mus musculus with 15 samples.

Results

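The collagen, laminin and integrin genes encode the main structural chains of the extracellular matrix and the receptors that hold cells to it. Their mRNA was measured by RNA sequencing in mouse neural precursor cells that carried inducible Atf3, inducible Atf4 or neither. Members were chosen by symbol alone, as protein-coding genes named Col, a number, a and a number, or Lama, Lamb, Lamc, Itga or Itgb and a number. There were 74 members among the 55416 gene identifiers of the deposited count table, namely 44 collagen, 11 laminin and 19 integrin genes.

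The cells were neural precursor cells, the dividing cells that give rise to neurons and glia, from the hippocampus of 6-week-old female mice, grown as a monolayer on a coating of poly-D-lysine and laminin. All 3 stable lines held a piggyBac insertion with the doxycycline-responsive TRE3G promoter, the SV40-TetON-3G transactivator and puromycin resistance. The Atf3 line carried the coding sequence of Atf3 behind that promoter, the Atf4 line that of Atf4, and the control line neither. EGF and FGF were withdrawn from every line to start differentiation, doxycycline was given at 100 ng/ml at the same time, and RNA was taken after 10 h. Atf3 and Atf4 encode leucine zipper transcription factors of cellular stress responses. Each construct was represented by 1 line, so that an effect of the transgene and any other difference between the lines cannot be told apart. The 5 libraries of a line are not stated to come from separate cultures, so p-values reflect only how much these samples varied, which may be technical variation.

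The libraries held 53.7 to 69.6 M gene-level counts, so that 1 CPM (counts scaled to the library total) stood for 53.7 to 69.6 counts before scaling. Atf3 mRNA was at 1.67 to 11 CPM in the control libraries, 1770 to 2110 CPM in the Atf3 libraries and 1.14 to 1.9 CPM in the Atf4 libraries. Atf4 mRNA was at 76.3 to 92.6, 227 to 267 and 128 to 188 CPM, so it was highest in the Atf3 line, and the counts cannot tell transgene and endogenous mRNA apart. The labelled cell type was checked with 10 precursor markers, among them Sox2, Nes and Vim. All 10 were above 1 CPM in every library, and they summed to 3680 to 3990 CPM in the control line, 4660 to 4840 CPM in Atf3 cells and 4330 to 4550 CPM in the Atf4 line.

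Collagens are triple helices of 3 chains that assemble into fibrils, into the type IV network of basement membranes, or into smaller associated structures. Laminins are cross-shaped trimers of an alpha, a beta and a gamma chain that organise the basement membrane. Integrins are receptors of 1 alpha and 1 beta chain that bind these proteins outside the cell and the actin cytoskeleton inside it. In the adult brain, precursor cells contact laminin-rich matrix through integrins that contain the beta 1 chain.

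The sequence below bears on the members because the genes of the 2 chains of the common type IV collagen, Col4a1 and Col4a2, lie head to head. On GRCm38, Col4a1 (ENSMUSG00000031502) spans chromosome 8, 11198423 to 11312826, on the minus strand, and Col4a2 (ENSMUSG00000031503) spans 11312805 to 11449287 on the plus strand. Their annotated ends overlap by 22 bases. The promoters below, from 250 bases before to 50 bases after each start, come from RefSeq on GRCm38.p6 and are written 5′ to 3′ on the strand of their gene, at chr8:11312777-11313076 for Col4a1 and chr8:11312555-11312854 for Col4a2. Capitals mark the 78 bases that both windows share, read on opposite strands.
Col4a1: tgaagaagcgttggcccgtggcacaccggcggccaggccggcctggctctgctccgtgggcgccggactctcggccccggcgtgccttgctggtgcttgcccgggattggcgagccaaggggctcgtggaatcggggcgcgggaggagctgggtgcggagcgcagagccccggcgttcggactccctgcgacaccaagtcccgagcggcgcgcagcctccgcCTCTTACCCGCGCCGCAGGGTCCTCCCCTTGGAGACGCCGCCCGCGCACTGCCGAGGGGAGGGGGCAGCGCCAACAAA
Col4a2: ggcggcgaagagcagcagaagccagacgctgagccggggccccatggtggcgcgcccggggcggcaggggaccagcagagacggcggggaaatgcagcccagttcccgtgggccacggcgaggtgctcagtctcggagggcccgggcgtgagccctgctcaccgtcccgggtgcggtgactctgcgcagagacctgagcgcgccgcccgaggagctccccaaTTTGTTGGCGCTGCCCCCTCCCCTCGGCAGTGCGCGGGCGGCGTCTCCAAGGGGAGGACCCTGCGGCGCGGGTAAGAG
Both windows were rich in G and C, at 74% and 73.7%. The other type IV genes also lie in divergent pairs, Col4a4 and Col4a3 on chromosome 1 with 71 bases between them, and Col4a6 and Col4a5 on chromosome X with 1308 bases between them.

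RefSeq promoter windows were found for 54 of the 74 members, and 3 strings known as binding letters of leucine zipper factors were searched on both strands. The strings cannot start at the same base as one another. The cyclic AMP response element TGACGTCA was in the window of 1 member (1.85%), Col24a1, against 2.03% of all 27025 genes with a window of the same length. The AP-1 site TGANTCA was in the windows of 3 members (5.56%), against 8.97% of all genes. The C/EBP-ATF composite element TGATGNAAN was in none of the 54, against 4.5% of all genes. The 3 AP-1 matches are shown with up to 27 bases on each side and the match in capitals, since the 3 genes moved in different directions. They lie at chr9:118711703-118711741 for Itga9, chr10:76726101-76726161 for Col6a1 and chr11:95069153-95069213 for Itga3.
Itga9: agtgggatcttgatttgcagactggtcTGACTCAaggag
Col6a1: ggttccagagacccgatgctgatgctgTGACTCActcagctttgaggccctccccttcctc
Itga3: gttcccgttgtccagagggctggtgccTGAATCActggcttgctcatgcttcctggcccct
The first was in a gene that rose in both lines and the others in genes that fell in both. For Itga9 and Itga3 the RefSeq start used here lies inside the gene span of the GENCODE annotation. A match describes the letters of the window and not a bound site.

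Levels of different genes were compared per length, as normalized CPM per kb of exon. In the control line a few chains carried most of each family. Lamc1, which encodes the gamma 1 chain found in most laminins, was at 96.5 CPM per kb, Lamb2 at 20.4, Lama5 at 12.2 and Lamb1 at 0.939. Itgb1, the beta 1 chain that pairs with most matrix-binding alpha chains, was at 184 CPM per kb, followed by Itgb8 at 36.5 and the laminin-receptor chain Itga6 at 15.5. The collagens were lower, led by Col4a1 at 18.4, Col9a3 at 15.3, Col4a5 at 14.8, Col4a2 at 9.48 and Col27a1 at 7.82 CPM per kb. With exons of protein-coding transcripts only, Col27a1 was at 13.4 CPM per kb and above Col4a2 at 9.73. The chains of the abundant interstitial collagens of connective tissue were near the limit of detection, with Col1a1 at 0.105 CPM per kb and Col1a2 and Col3a1 at or below 22 counts in every library.

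**Figure D1:**
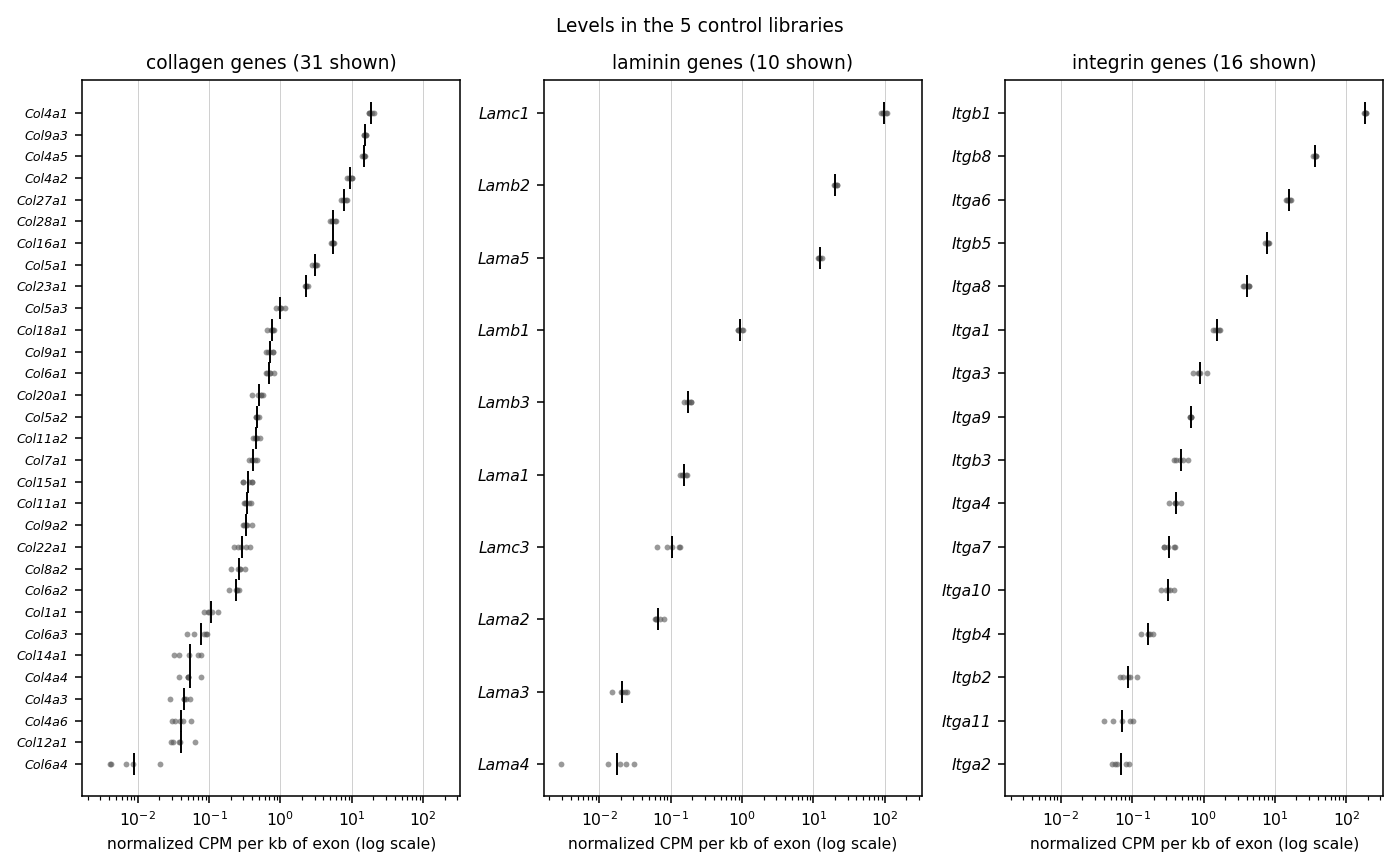
Normalized CPM per kb of exon (log axis) of tested members in the 5 control libraries, with points for libraries and a bar for the mean, in 1 panel per family. The 3 families span several powers of 10, from Itgb1 at 184 and Lamc1 at 96.5 CPM per kb to Col6a4 and Lama4 at under 0.02.

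Of the 74 members, 58 passed the filter on low counts and were tested, namely 31 of 44 collagens, 11 of 11 laminins and 16 of 19 integrins. The 16 others were Col1a2, Col2a1, Col3a1, Col6a5, Col6a6, Col8a1, Col10a1, Col13a1, Col17a1, Col19a1, Col24a1, Col25a1, Col26a1, Itga5, Itgb6 and Itgb7, none above 22 counts in any library. The filter sat at about 0.174 CPM, and 44 tested members were at or above it in every library. Of the rest, 6 reached it throughout 2 lines only. Lama4 did so in the Atf3 and Atf4 lines, and Col1a1, Col4a3, Col6a2, Col9a2 and Lamc3 in the control and Atf4 lines. Another 8 reached it throughout 1 line only. These were Col4a6, Col6a3, Col8a2, Col14a1, Itga2 and Itga11 in the control line, Col6a4 in the Atf3 line and Lama3 in the Atf4 line. Those 8 passed through the line where they were high, so their difference is not support for a direction. The 6 passed through the lines where they were higher, so their difference from the remaining line carries the same limit.

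In the Atf3 line more members were lower than higher, against control. By edgeR's quasi-likelihood test at an adjusted p under 0.05, 15 of the 58 were higher and 33 lower, and 10 were not called. Among all 18244 genes tested, 36.8% were higher and 36.3% lower, and the members' shares were 25.9% and 56.9%. Of the 33 lower members, 7 are among the 8 that passed the filter through 1 line only. At 2-fold or more, 5 of the 58 were higher and 21 lower, against 7.12% and 10.4% of all genes. Members that passed through 1 line only are among these, Col4a6, Col6a3, Col8a2, Col14a1, Itga2 and Itga11 lower and Col6a4 higher. The libraries of the 2 lines did not overlap for 42 members (72.4%), against 60.7% of all genes. The median log2 fold change was -0.69 for the members and -0.017 for all genes. The overlap count and this median also include the members that passed through 1 line only. With library totals in place of TMM scaling the median of all genes shifted to -0.155, 38.4% of all calls were higher in place of 50.3%, and the members stood at 12 higher and 36 lower.

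The Atf4 line showed the same majority in smaller sizes. There 14 members (24.1%) were higher and 27 (46.6%) lower and 17 were not called, against 31.9% and 29.7% of all genes, and 5 of the 27 passed the filter through 1 line only. At 2-fold or more 4 of the 58 were higher and 14 lower, against 4.19% and 4.83%. The 14 include Col6a3, Col8a2, Col14a1 and Itga2, which passed the filter through the control line only. The libraries did not overlap for 34 members (58.6%, against 47.9%). The median log2 fold change was -0.39 for the members and -0.001 for all genes. Both comparisons use the same 5 control libraries. Without control replicates 4 and 5, left out because an earlier analysis of these data had found them apart for immediate early genes, the same 58 members stood at 15 higher and 34 lower in Atf3 cells and 13 higher and 25 lower in the Atf4 line.

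Part of the majority lay in weakly expressed members. Among the 40 with a mean of at least 1 CPM, which hold none of the 8 members that passed through 1 line only, 12 were higher and 21 lower in Atf3 cells (median -0.28), while 45% of all 13657 such genes were higher and 35.2% lower (median 0.06). In the Atf4 line 13 of these 40 were higher and 17 lower (median -0.15), against 39% and 30.9% of such genes. Among the 18 members under 1 CPM, 3 were higher and 12 lower in Atf3 cells (median -1.40), and weakly expressed genes of the whole table also leaned lower, at 12.4% higher and 39.8% lower (median -0.41).

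**Figure D2:**
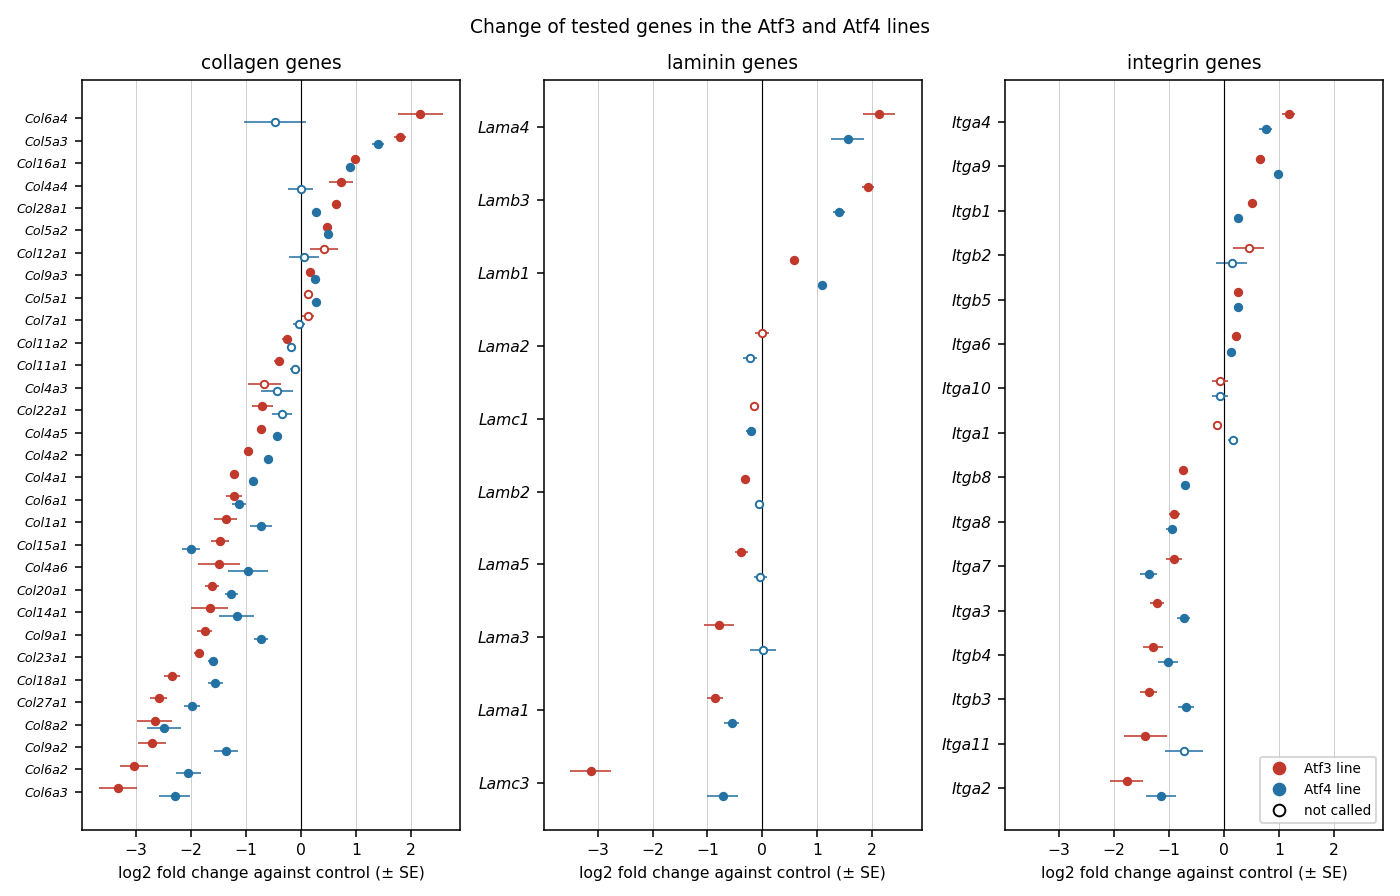
Log2 fold change against the control line, with its standard error, of tested members in the Atf3 line (red) and the Atf4 line (blue), in 1 panel per family, with open points where the edgeR adjusted p was 0.05 or more. Most collagens lie left of 0, down to -3.33 for Col6a3 in the Atf3 line, a gene that passed the filter through the control line only. No gene has filled points on opposite sides of 0.

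The type IV collagens with the highest levels, Col4a1, Col4a2 and Col4a5, fell in both lines. Col4a1 stood at 143, 151, 134, 129.5 and 129 CPM in the control libraries, at 53.2, 62.2, 58.0, 63.5 and 60.6 CPM in the Atf3 libraries and at 81.8, 67.6, 76.3, 74.5 and 75.9 CPM in the Atf4 libraries. Every control library was above every other, and the Atf4 libraries were all above the Atf3 libraries. Its mean of 137 ± 9.55 CPM (SD, n = 5, as for all means below) fell 2.31-fold in Atf3 cells and 1.83-fold in the Atf4 line. As log2 fold changes these were -1.21 ± 0.06 and -0.87 ± 0.06 (standard error, as for all log2 fold changes below; edgeR adjusted p = 1.6e-12 and 2.7e-10).

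Col4a2, its neighbour and partner chain, stood at 66.1, 66.0, 60.3, 64.2 and 57.1 CPM in the control libraries, at 28.4, 31.9, 31.1, 35.3 and 32.9 CPM in the Atf3 libraries and at 43.7, 36.6, 44.3, 43.0 and 41.4 CPM in the Atf4 libraries. The 3 lines were again separate and in the same order as for Col4a1. The log2 fold changes of Col4a2 were -0.97 ± 0.06 and -0.59 ± 0.06 (edgeR adjusted p = 5.4e-11 and 1.1e-07). Col4a5, a chain of other type IV networks, fell from 99.3 ± 3.43 CPM to 60.0 ± 3.29 CPM in Atf3 cells and 73.2 ± 3.11 CPM in the Atf4 line, and its lines did not overlap either. The remaining type IV genes were at under 1 CPM on average. Of these, Col4a6, which passed the filter through the control line only, fell in both lines (-1.49 ± 0.39 and -0.96 ± 0.36). The second call was lost without control replicate 2, without Atf4 replicate 2 or 3, or without control replicates 4 and 5 together. Col4a4 rose in the Atf3 line (0.73 ± 0.22, edgeR adjusted p = 0.0061) with a log2 fold change of 0.00 ± 0.23 in the Atf4 line. Col4a3, the divergent neighbour of Col4a4, was called in neither line (-0.67 ± 0.30 and -0.43 ± 0.29). Its edgeR adjusted p in the Atf3 line was 0.051. There it was called lower with RLE scaling, plain library totals, DESeq2, limma-voom, a replicate block or only the lines compared, and in some fits without single libraries.

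The fibril-forming collagens moved apart. Among 7 tested of 11, 2 rose (28.6%) and 4 fell (57.1%) in the Atf3 line, against 36.8% and 36.3% of all genes. In the Atf4 line 3 rose (42.9%) and 2 fell (28.6%), against 31.9% and 29.7%. Col27a1 (chromosome 4, 63214004 to 63334991, plus strand; positions are on GRCm38), a fibrillar collagen known from cartilage, stood at 107, 112, 96.2, 102 and 91.6 CPM in the control libraries, at 13.3, 20.7, 12.4, 20.6 and 17.3 CPM in the Atf3 libraries and at 33.3, 29.2, 25.8, 23.6 and 16.9 CPM in the Atf4 libraries. All control libraries were far above the rest, whereas the Atf3 and Atf4 libraries overlapped. The fall was 6.03-fold in the Atf3 line (-2.59 ± 0.16, edgeR adjusted p = 3.8e-11) and 3.94-fold in the Atf4 line (-1.98 ± 0.15, edgeR adjusted p = 2.4e-09).

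Col5a3 (chromosome 9, 20770050 to 20815067, minus strand), a chain of the type V collagen that sets fibril diameter, went the other way. It stood at 5.97, 7.75, 6.62, 6.94 and 6.72 CPM in the control libraries, at 22.2, 21.6, 23.4, 26.0 and 25.4 CPM in the Atf3 libraries and at 14.3, 16.5, 19.7, 16.7 and 23.1 CPM in the Atf4 libraries. Neither line overlapped with control, and Atf4 replicate 5 lay within the range of the Atf3 line. The rise was 3.49-fold in the Atf3 line (1.80 ± 0.11, edgeR adjusted p = 2.6e-11) and 2.65-fold in the Atf4 line (1.41 ± 0.11, edgeR adjusted p = 2e-09). Its partner chain Col5a2 stood at 4.87, 4.55, 4.34, 4.35 and 4.51 CPM in the control libraries, at 6.30, 5.77, 6.01, 7.07 and 6.39 CPM in the Atf3 libraries and at 6.38, 5.67, 7.29, 6.39 and 6.10 CPM in the Atf4 libraries. Every library of both lines was above control, by 1.4-fold in Atf3 cells and 1.41-fold in the Atf4 line. The third type V chain, Col5a1, rose in the Atf4 line (0.27 ± 0.07, edgeR adjusted p = 0.0042) and was at 0.13 ± 0.07 in the Atf3 line (adjusted p = 0.11), and whether its change differed between the lines did not pass the test (0.13 ± 0.07, adjusted p = 0.16). Col1a1, the main chain of skin and bone collagen, fell from 0.690 ± 0.123 CPM in both lines. Its Atf3 libraries did not all reach the filter. Col11a1 fell in the Atf3 line (-0.40 ± 0.08), and so did Col11a2 (-0.26 ± 0.09, edgeR adjusted p = 0.021). The Col11a2 call was lost without Atf3 replicate 1 or 4, without control replicates 4 and 5, or with no filter on low counts.

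Fibril-associated collagens, which sit on the surface of fibrils, also split. Col16a1 (chromosome 4, 130047840 to 130099283, plus strand) stood at 36.2, 36.6, 35.6, 34.7 and 38.0 CPM in the control libraries, at 73.4, 65.1, 71.3, 75.9 and 71.3 CPM in the Atf3 libraries and at 63.1, 59.4, 70.4, 68.2 and 76.1 CPM in the Atf4 libraries. Both lines lay wholly above control and overlapped with each other. It rose 1.97-fold in the Atf3 line (0.98 ± 0.06, edgeR adjusted p = 2.3e-11) and 1.86-fold in the Atf4 line (0.90 ± 0.06, edgeR adjusted p = 2e-10).

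The 3 type IX chains, which form 1 trimer in cartilage, did not move together. Col9a3 (chromosome 2, 180597790 to 180622189, plus strand) stood at 57.6, 60.1, 57.6, 59.6 and 60.6 CPM in the control libraries, at 66.4, 63.5, 68.2, 65.3 and 65.8 CPM in the Atf3 libraries and at 67.7, 70.5, 74.2, 67.3 and 72.5 CPM in the Atf4 libraries. It was higher than control in every library of both lines, by a log2 fold change of 0.16 ± 0.03 and 0.25 ± 0.03. With plain library totals the change in the Atf3 line was 0.02 and not called (adjusted p = 0.65). Col9a1 stood at 3.58, 3.40, 3.15, 4.02 and 3.96 CPM in the control libraries, at 1.09, 1.07, 0.878, 1.28 and 1.05 CPM in the Atf3 libraries and at 2.95, 2.25, 2.27, 1.84 and 1.69 CPM in the Atf4 libraries. It fell 3.37-fold with Atf3 and 1.64-fold with Atf4, with no overlap between any lines. Col9a2 fell from 1.03 ± 0.117 CPM to 0.157 ± 0.0790 CPM and 0.396 ± 0.0628 CPM, and did not reach the filter in every Atf3 library. Of Col9a3, 6.07% of the exon bases are shared with the opposite-strand gene Tcfl5, and the library kit did not mark strand. Col20a1 stood at 2.71, 2.95, 2.07, 2.70 and 2.52 CPM in the control libraries, at 0.869, 0.910, 0.949, 0.838 and 0.665 CPM in the Atf3 libraries and at 0.973, 1.11, 1.08, 1.26 and 0.951 CPM in the Atf4 libraries. It fell 3.07-fold with Atf3 and 2.41-fold with Atf4, with the 3 lines apart. Col14a1, which passed the filter through the control line only, fell in both lines (-1.66 ± 0.34 and -1.17 ± 0.32) from 0.376 ± 0.132 CPM. Col22a1 fell in the Atf3 line (-0.70 ± 0.19), from 2.69 ± 0.554 CPM, and was at -0.34 ± 0.18 in the Atf4 line. Col12a1, at 0.612 ± 0.209 CPM in control, was called in neither (0.42 ± 0.26 and 0.06 ± 0.27), though the Atf3 change was called without control replicate 2 or Atf3 replicate 5.

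**Figure D3:**
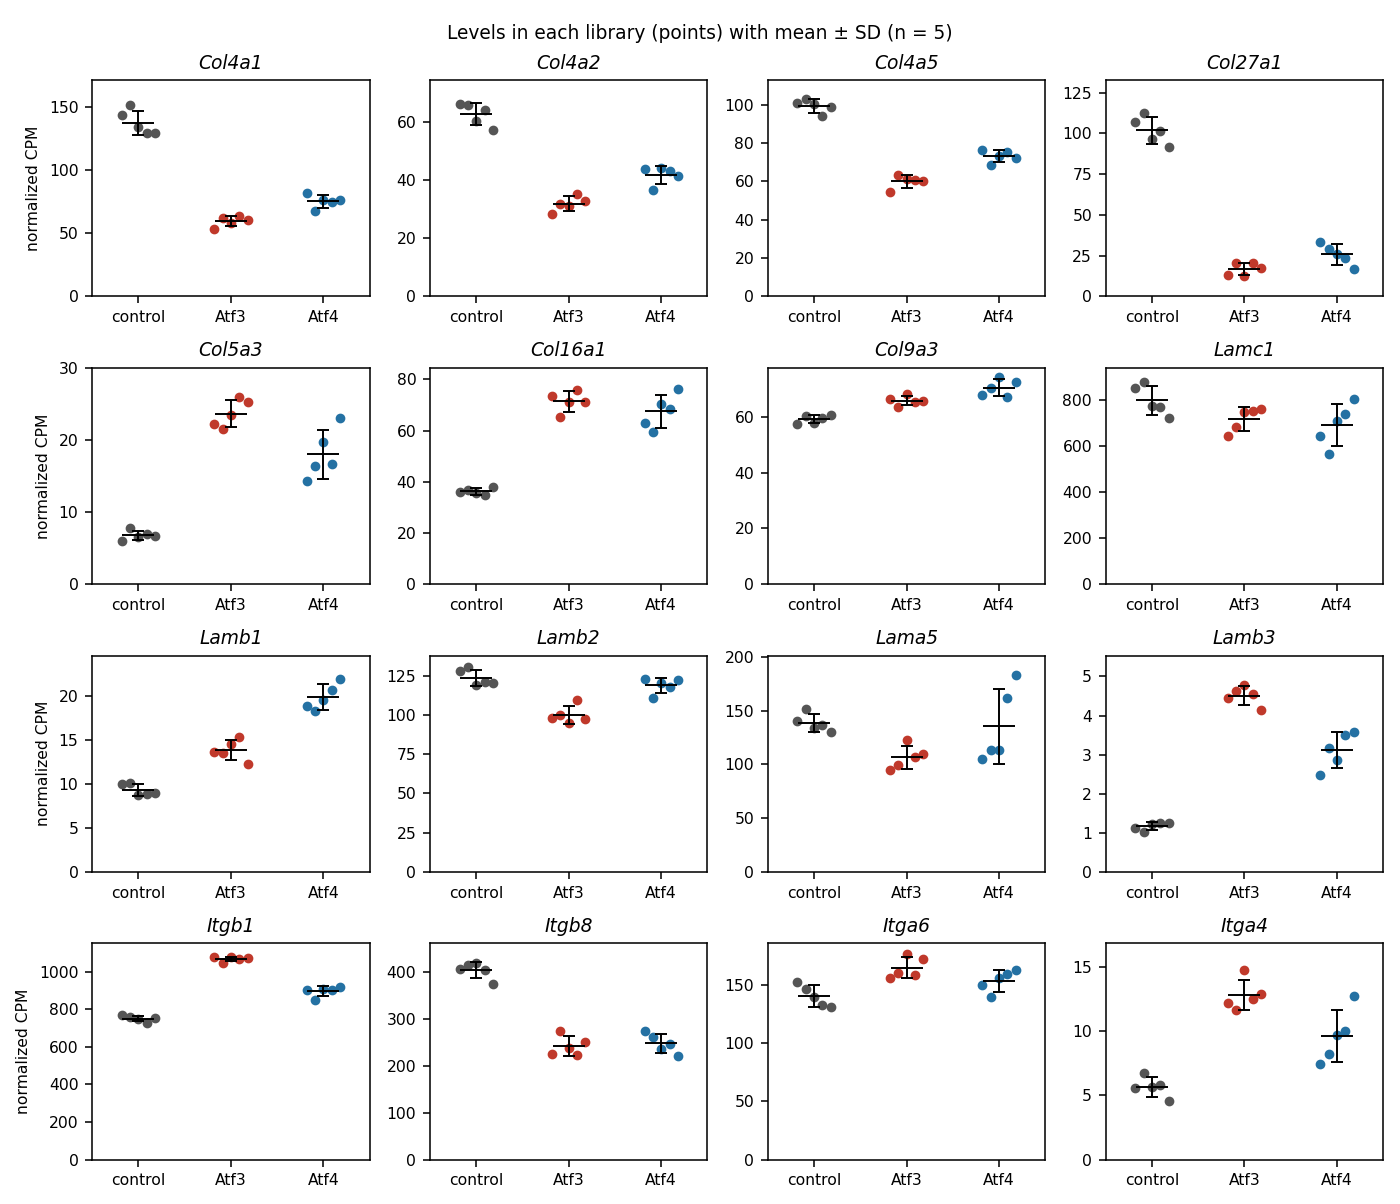
Normalized CPM of 16 members in each library (points) with mean and SD (bars, n = 5) for the control, Atf3 and Atf4 lines, on linear axes from 0. The control libraries of Col4a1, Col4a2, Col4a5 and Col27a1 lie above all others, those of Col5a3, Col16a1, Lamb1, Lamb3 and Itgb1 below all others, and the Atf4 libraries of Lama5 run from 105 to 183 CPM.

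The collagens that lie in or near basement membranes and carry cleavable ends, Col15a1 and Col18a1, both fell. Col18a1, the source of endostatin, stood at 5.14, 5.49, 4.60, 5.37 and 5.71 CPM in the control libraries, at 0.832, 1.06, 1.16, 1.00 and 1.10 CPM in the Atf3 libraries and at 2.49, 1.62, 1.79, 1.86 and 1.15 CPM in the Atf4 libraries. Control was far above both lines, which met only at Atf4 replicate 5. The fall was 5.09-fold and 2.95-fold. Col15a1 stood at 2.52, 2.52, 1.88, 2.33 and 1.88 CPM in the control libraries, at 0.813, 1.11, 0.615, 0.707 and 0.763 CPM in the Atf3 libraries and at 0.679, 0.393, 0.625, 0.613 and 0.485 CPM in the Atf4 libraries. All libraries of both lines were below control, by 2.78-fold and 3.99-fold.

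Among collagens of other types, Col23a1, a collagen with a transmembrane segment, stood at 12.6, 13.7, 13.1, 12.9 and 13.2 CPM in the control libraries, at 3.68, 3.77, 3.60, 3.46 and 3.72 CPM in the Atf3 libraries and at 5.16, 4.11, 4.70, 4.38 and 3.23 CPM in the Atf4 libraries. It fell 3.59-fold and 3.03-fold, with control far above the rest. The type VI chains Col6a1, Col6a2 and Col6a3, which form beaded filaments, all fell in both lines, though Col6a3 passed the filter through the control line only. Col6a1 fell 2.33-fold and 2.17-fold from 3.07 ± 0.311 CPM, and Col6a2 8.23-fold and 4.15-fold from 1.98 ± 0.229 CPM. Col6a2 did not reach the filter in every Atf3 library. Col6a4 was higher in the Atf3 line at 0.355 ± 0.0870 CPM, a level close to the filter, which it passed through that line only. Col28a1, which resembles type VI chains and is known from peripheral nerve, stood at 28.5, 29.6, 25.5, 24.4 and 25.6 CPM in the control libraries, at 39.1, 41.0, 41.3, 44.2 and 43.5 CPM in the Atf3 libraries and at 32.5, 28.9, 34.5, 32.6 and 33.8 CPM in the Atf4 libraries. Its Atf3 libraries lay above all others, and the lowest Atf4 library lay within the control range. The rise was 1.57-fold and 1.22-fold. Col8a2, which passed the filter through the control line only, fell in both lines (-2.66 ± 0.32 and -2.50 ± 0.31) from 1.19 ± 0.188 CPM. Col7a1, at 4.25 ± 0.476 CPM in control, was called in neither (0.13 ± 0.11 and -0.03 ± 0.11).

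In all, 7 collagens rose (22.6%) and 20 fell (64.5%) in Atf3 cells and 6 rose (19.4%) and 17 fell (54.8%) in the Atf4 line, of 31 tested. Of all genes, for these and the marker counts below, 36.8% rose and 36.3% fell in Atf3 cells and 31.9% and 29.7% in the Atf4 line. The falls in both lines include Col4a6, Col6a3, Col8a2 and Col14a1, which passed the filter through the control line only. Markers of other cell types were summed beside these falls. Of 10 mural cell and fibroblast markers, 8 were under 1 CPM in every library, with Lum at no more than 0.0525 CPM and Pdgfrb at no more than 0.0593 CPM. Their sum was 35.1 to 40.2 CPM in the control line, 14.2 to 17.5 CPM in Atf3 cells and 22.3 to 27.2 CPM in the Atf4 line, so it moved with the collagens. Cspg4 (29.1 to 33.3, 11.4 to 14.5 and 18.4 to 23.2 CPM) and Pdgfra, which precursors of oligodendrocytes also express, made up most of it. Of 8 endothelial markers, 4 were under 1 CPM in every library, Cldn5 at no more than 0.0482 CPM. Their sum was 48.4 to 52.6 CPM in control, 15.5 to 21.3 CPM with Atf3 and 21 to 25.6 CPM with Atf4, and Kdr made up most of it in control. The single endothelial markers went both ways. Of 5 tested, 2 rose and 3 fell with Atf3, and 2 rose, 1 fell and 2 were not called with Atf4. Of 6 oligodendrocyte-lineage markers 5 were tested, and 5 fell with Atf3 and 4 with Atf4, among them Sox10, Mbp and Olig2 in both. The 6 summed to 3810 to 4380, 2910 to 3720 and 3450 to 4020 CPM in the control, Atf3 and Atf4 lines. Of 4 neuronal markers, 2 fell and 2 were not called with Atf3, and 1 rose, 2 fell and 1 was not called with Atf4. Among these, the neuronal tubulin Tubb3 was at 82.9 to 87.6, 13.4 to 17.5 and 31.7 to 52.1 CPM in the control, Atf3 and Atf4 lines. Of 8 white blood cell markers, Tyrobp and C1qa had no count in any library and the sum was at most 1.43 CPM. The 5 ependymal markers summed to 23.5 to 27.9, 31.7 to 41.7 and 30.9 to 40.3 CPM, and the 4 Schwann cell markers to 25.8 to 237, 29.4 to 48.3 and 11.6 to 14.5 CPM. The single markers of both lists went both ways. Of 3 ependymal markers tested, 2 rose and 1 fell with Atf3, and 1 rose, 1 fell and 1 was not called with Atf4. Of 4 Schwann cell markers, 1 rose, 2 fell and 1 was not called in each line. In bulk RNA, fewer cells of a type and less RNA per cell cannot be told apart, and the part of these cells in the collagen changes was not tested.

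The laminin chains that were highest per length (Lamc1, Lamb2 and Lama5) changed 1.3-fold at most, with some of these changes not called. The chains lower per length went both ways. Of these, Lamb3, Lama4 and Lamb1 rose in both lines, Lama1 and Lamc3 fell in both, and Lama3 fell in the Atf3 line only. Of 11 tested, 3 rose (27.3%) and 5 fell (45.5%) in the Atf3 line, against 36.8% and 36.3% of all genes. In the Atf4 line 3 rose and 3 fell (27.3% each), near the 31.9% and 29.7% of all genes. Lamc1 (chromosome 1, 153218922 to 153332786, minus strand), the highest per length, stood at 852, 876, 774, 769.9 and 720.5 CPM in the control libraries, at 643, 684, 749, 752 and 763 CPM in the Atf3 libraries and at 643, 564, 709, 739.6 and 804 CPM in the Atf4 libraries. The ranges of all 3 lines overlapped. Its log2 fold change was -0.15 ± 0.08 in the Atf3 line (edgeR adjusted p = 0.085) and -0.21 ± 0.08 in the Atf4 line (edgeR adjusted p = 0.028). The second call was lost without control replicate 1 or 2 (adjusted p = 0.056 and 0.065) or Atf4 replicate 1 or 2 (0.054 and 0.057). The first was gained without control replicate 5 (0.034), Atf4 replicate 2 or 5 (0.023 and 0.028) or both control replicates 4 and 5 (0.032). Lamc1 was also called lower in the Atf3 line with plain library totals, a filter at 1 CPM or only the 2 lines compared.

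The 3 beta chains all differed between control and the Atf3 line. Lamb1 (chromosome 12, 31265234 to 31329644, plus strand) stood at 9.94, 10.1, 8.73, 8.81 and 9.002 CPM in the control libraries, at 13.6, 13.4, 14.5, 15.4 and 12.3 CPM in the Atf3 libraries and at 18.8, 18.2, 19.5, 20.7 and 21.9 CPM in the Atf4 libraries. The lines were separate, with the Atf4 line on top. The rise was 1.49-fold in the Atf3 line (0.57 ± 0.07, edgeR adjusted p = 4e-07) and 2.13-fold in the Atf4 line (1.09 ± 0.07, edgeR adjusted p = 1.2e-10).

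Lamb2 stood at 128, 130.5, 119, 121 and 120.5 CPM in the control libraries, at 98.0, 99.8, 94.8, 109 and 97.2 CPM in the Atf3 libraries and at 123, 111, 120.3, 118 and 122 CPM in the Atf4 libraries. All Atf3 libraries lay below control, and the Atf4 libraries overlapped with it. Lamb2 fell by 0.31 ± 0.04 on the log2 scale there (edgeR adjusted p = 2.1e-06), with -0.06 ± 0.04 in the Atf4 line (adjusted p = 0.23), and the difference between the lines passed the test (0.25 ± 0.04, edgeR adjusted p = 0.00011). Lamb3, the beta chain of skin laminin, stood at 1.12, 1.02, 1.21, 1.26 and 1.26 CPM in the control libraries, at 4.46, 4.64, 4.78, 4.54 and 4.14 CPM in the Atf3 libraries and at 2.49, 3.16, 2.86, 3.50 and 3.59 CPM in the Atf4 libraries. Its 3 lines were separate, and the rise was 3.82-fold in Atf3 cells and 2.64-fold in the Atf4 line.

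Among the alpha chains, which carry the sites that integrins bind, Lama5 (chromosome 2, 180176373 to 180225859, minus strand) was the highest per length. It stood at 140.2, 152, 134, 137 and 130 CPM in the control libraries, at 94.6, 99.6, 122, 107 and 109.6 CPM in the Atf3 libraries and at 105, 114, 113, 162 and 183 CPM in the Atf4 libraries. The Atf3 libraries were all below control, and the Atf4 libraries lay on both sides of it. Lama5 fell by 0.38 ± 0.12 on the log2 scale in the Atf3 line (edgeR adjusted p = 0.0091) and was at -0.04 ± 0.12 in the Atf4 line (adjusted p = 0.82). The difference between the Atf4 and Atf3 lines (0.34 ± 0.12, edgeR adjusted p = 0.028) was lost without Atf3 replicate 1 (adjusted p = 0.074) or 2 (0.062), or Atf4 replicate 4 (0.081) or 5 (0.077).

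Lama4, an alpha chain of vessel and muscle basement membranes, stood at 0.369, 0.161, 0.0352, 0.282 and 0.237 CPM in the control libraries, at 1.20, 1.04, 0.861, 0.763 and 1.02 CPM in the Atf3 libraries and at 0.803, 0.562, 0.590, 0.647 and 0.682 CPM in the Atf4 libraries. Every library of both lines was above every control library, and the fitted rise was 4.39-fold and 2.95-fold. Lama4 passed the filter through the Atf3 and Atf4 lines only, so its rise is not support for a direction. Lama1, known from the early embryo, stood at 1.45, 1.66, 1.58, 1.38 and 1.29 CPM in the control libraries, at 0.703, 0.764, 0.843, 0.819 and 0.893 CPM in the Atf3 libraries and at 0.849, 0.786, 0.955, 1.17 and 1.24 CPM in the Atf4 libraries. It fell 1.82-fold and 1.48-fold, without overlap with control. Lama2, the muscle chain, stood at 1.33, 1.02, 1.00, 1.14 and 1.02 CPM in the control libraries, at 1.03, 1.27, 1.09, 1.08 and 1.02 CPM in the Atf3 libraries and at 1.02, 0.997, 0.868, 1.07 and 0.736 CPM in the Atf4 libraries. Its lines overlapped, and it was called in neither comparison with control (-0.01 ± 0.13 and -0.23 ± 0.13). Lama3, which passed the filter through the Atf4 line only, fell in the Atf3 line from 0.223 ± 0.0391 CPM to 0.129 ± 0.0489 CPM. Of the scarce gamma chains, Lamc3 fell 8.78-fold in the Atf3 line, from 0.636 ± 0.175 CPM to 0.0718 ± 0.0288 CPM, and 1.65-fold in the Atf4 line, where its libraries overlapped with control. The Atf4 call (edgeR adjusted p = 0.033) was lost with a replicate block or without control replicate 4 or 5 or both. It was also lost without Atf4 replicate 4 or 5. In the Atf3 line Lamc3 did not reach the filter in every library. Of Lamc3, 6.27% of the exon bases are shared with an annotated antisense gene.

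Of 16 integrin chains tested, 5 rose (31.2%) and 8 fell (50%) in the Atf3 line, against 36.8% and 36.3% of all genes. In the Atf4 line 5 rose (31.2%) and 7 fell (43.8%), against 31.9% and 29.7% of all genes, so the share that rose was near that of all genes. The abundant chains moved in opposite directions. Itgb1 (chromosome 8, 128685654 to 128733200, plus strand) stood at 768, 757, 748, 727 and 751 CPM in the control libraries, at 1075, 1048, 1076, 1066 and 1074 CPM in the Atf3 libraries and at 902, 850, 906, 901 and 916 CPM in the Atf4 libraries. The 3 lines were separate, with the Atf4 line between the others. Its rise was 1.42-fold in the Atf3 line (0.51 ± 0.03, edgeR adjusted p = 9.2e-12) and 1.19-fold in the Atf4 line (0.25 ± 0.03, edgeR adjusted p = 2.4e-07).

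Itgb8 (chromosome 12, 119158022 to 119238802, minus strand), whose product pairs with alpha v and is known for releasing active TGF-beta, fell. It stood at 408, 415, 419, 404 and 375 CPM in the control libraries, at 225, 276, 238, 224 and 251 CPM in the Atf3 libraries and at 274, 261, 236, 248 and 221 CPM in the Atf4 libraries. All control libraries were above both lines, which covered nearly the same range. The log2 fold changes were -0.74 ± 0.06 and -0.70 ± 0.06 (edgeR adjusted p = 2.3e-09 and 9.4e-09). Of the other alpha v partners, Itgb5 rose 1.2-fold in each line and Itgb3 fell 2.58-fold and 1.61-fold. Itgb5 stood at 28.8, 29.1, 27.4, 25.9 and 28.1 CPM in the control libraries, at 32.5, 35.4, 30.7, 38.7 and 29.9 CPM in the Atf3 libraries and at 37.8, 32.6, 34.5, 33.2 and 29.0 CPM in the Atf4 libraries. Itgb3 stood at 3.60, 2.25, 2.46, 2.997 and 2.80 CPM in the control libraries, at 0.887, 1.09, 0.896, 1.19 and 1.40 CPM in the Atf3 libraries and at 2.10, 1.60, 1.77, 1.96 and 1.35 CPM in the Atf4 libraries. The Atf3 libraries of Itgb5 were all above control and 1 Atf4 library was within its range, while Itgb3 was below control in every library of both lines. With plain library totals the Itgb5 change in the Atf3 line was 0.13 (adjusted p = 0.12). Itgb4, the hemidesmosome chain, stood at 1.19, 1.36, 1.16, 1.26 and 0.919 CPM in the control libraries, at 0.518, 0.400, 0.474, 0.465 and 0.536 CPM in the Atf3 libraries and at 0.695, 0.365, 0.521, 0.787 and 0.538 CPM in the Atf4 libraries. It fell 2.45-fold and 2.03-fold, without overlap with control. Itgb2, the leukocyte chain, was at 0.267 ± 0.0587 CPM in control and called in neither line.

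Of the laminin-binding alpha chains, Itga6 (chromosome 2, 71745616 to 71858416, plus strand) was the main one. It stood at 152, 146, 139, 132 and 130.4 CPM in the control libraries, at 156, 159.8, 176, 158 and 172 CPM in the Atf3 libraries and at 149.5, 139, 156, 159 and 162 CPM in the Atf4 libraries. The Atf3 libraries lay just above control, and the Atf4 libraries overlapped with both lines. Its rise was 0.23 ± 0.05 in the Atf3 line (edgeR adjusted p = 0.00048, but 0.1 with plain library totals). In the Atf4 line it was 0.13 ± 0.05 (edgeR adjusted p = 0.037). The call ended without any 1 of control replicates 2 to 5 or Atf4 replicates 1, 3, 4 and 5 (adjusted p 0.052 to 0.16). Without control replicates 4 and 5 together the change was at 0.06 (0.41). The call was also lost with plain library totals, a filter at 1 CPM, a replicate block or only the 2 lines compared.

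Itga3, which binds laminins with the alpha 3 and alpha 5 chains, stood at 6.44, 4.97, 5.08, 4.75 and 4.12 CPM in the control libraries, at 1.76, 2.13, 2.30, 2.48 and 2.22 CPM in the Atf3 libraries and at 3.29, 3.44, 3.23, 2.89 and 2.35 CPM in the Atf4 libraries. It fell 2.33-fold and 1.66-fold, without overlap with control. Itga7, the muscle laminin receptor, stood at 3.21, 3.11, 2.27, 2.25 and 2.60 CPM in the control libraries, at 1.66, 1.51, 1.20, 1.247 and 1.51 CPM in the Atf3 libraries and at 1.14, 0.913, 1.37, 0.980 and 0.772 CPM in the Atf4 libraries. It fell 1.88-fold and 2.59-fold, also without overlap. Of the collagen-binding alpha chains, Itga1 was the highest per length, at 28.6 ± 2.46, 26.3 ± 1.96 and 32.0 ± 3.94 CPM, and was called in neither line against control. It was called lower in the Atf3 line with plain library totals, a filter at 1 CPM or without control replicates 4 and 5. In the Atf4 line it was called higher without a filter or without Atf4 replicate 2. Itga1 was higher in the Atf4 than in the Atf3 line (0.28 ± 0.08, edgeR adjusted p = 0.0073). Itga2 fell in both lines (-1.77 ± 0.30 and -1.15 ± 0.27) from 0.491 ± 0.120 CPM. Itga11 fell in the Atf3 line (-1.43 ± 0.39) from 0.376 ± 0.136 CPM and was at -0.73 ± 0.35 in the Atf4 line. The Atf4 change was called without control replicate 1, Atf3 replicate 1 or Atf4 replicate 5, or with only the 2 lines compared. Both Itga2 and Itga11 passed the filter through the control line only. Itga10, at 1.66 ± 0.245 CPM in control, was called in neither line (-0.07 ± 0.15 in each). Of Itga10, 33.5% of the exon bases are shared with the gene Gm42957, so its count is uncertain.

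The alpha chains that bind fibronectin, tenascin and related proteins were of 2 kinds. Itga4 stood at 5.60, 6.73, 5.64, 5.80 and 4.60 CPM in the control libraries, at 12.2, 11.6, 14.8, 12.5 and 12.9 CPM in the Atf3 libraries and at 7.49, 8.21, 9.70, 10.05 and 12.7 CPM in the Atf4 libraries. Both lines were above control in every library. The rise was 2.26-fold in the Atf3 line (1.18 ± 0.12, edgeR adjusted p = 6.1e-08) and 1.7-fold in the Atf4 line (0.76 ± 0.12, edgeR adjusted p = 2.7e-05). Its close relative Itga9 stood at 5.19, 5.03, 5.18, 4.94 and 5.18 CPM in the control libraries, at 7.50, 7.82, 8.19, 8.39 and 8.33 CPM in the Atf3 libraries and at 8.48, 8.87, 11.1, 11.01 and 11.4 CPM in the Atf4 libraries. It rose 1.58-fold and 1.99-fold, and the Atf4 libraries were all above the Atf3 libraries. Itga8, in contrast, stood at 32.2, 30.8, 26.99, 31.9 and 26.1 CPM in the control libraries, at 14.0, 16.7, 14.3, 16.1 and 18.1 CPM in the Atf3 libraries and at 18, 12.1, 17.9, 15.4 and 13.0 CPM in the Atf4 libraries. It fell 1.87-fold and 1.94-fold, with all control libraries above the rest. Itga5, the classical fibronectin receptor chain, was between 0 and 0.109 CPM in all 15 libraries and was not tested. Of Itga4, 8.04% of the exon bases are shared with the opposite-strand gene Cerkl.

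The Atf4 line was then compared with the Atf3 line. Of the 58 members, 22 were higher in the Atf4 line and 9 lower, against 19.7% and 23.9% of all genes, and 27 were not called. At 2-fold or more 3 were higher and 1 lower, against 2.31% and 0.954%. The lower member was Col6a4, which passed the filter through the Atf3 line only. Of the higher members, Col9a2 and Lamc3 did not reach the filter in every Atf3 library. With plain library totals the median of all genes shifted from 0.007 to 0.108, 72.3% of all calls were higher in place of 45.2%, and the members stood at 25 higher and 7 lower. No member was called higher in one line and lower in the other against control. Among the 26 members lower in both lines, 14 were higher in the Atf4 than in the Atf3 line, 2 were lower and 10 were not called. Among the 13 higher in both, 3 were higher in the Atf4 line (Lamb1, Itga9 and Col9a3), 5 were lower (Itgb1, Col5a3, Col28a1, Lamb3 and Itga4) and 5 were not called. These splits rest on comparisons that share libraries, and the same splits were not counted for all genes. For all called genes, the median absolute log2 fold change against control was larger with Atf3 (0.553) than with Atf4 (0.427). Whether the members differ from other genes in these splits was not tested.

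Among members of at least 1 CPM whose Atf3 and Atf4 libraries did not overlap, the members with the most positive differences were Col9a1, Lamb1, Col4a2 and Col20a1, and 3 were lower in the Atf4 line. Col9a1 was 1.04 ± 0.15 higher on the log2 scale in the Atf4 line (edgeR adjusted p = 2.2e-05), Lamb1 0.52 ± 0.07 (edgeR adjusted p = 7.2e-06) and Col4a2 0.39 ± 0.06 (edgeR adjusted p = 5.7e-05). Lamb3 was at -0.53 ± 0.10 (edgeR adjusted p = 0.00022), Col28a1 at -0.37 ± 0.06 (5.7e-05) and Itgb1 at -0.26 ± 0.03 (1.6e-06). Lamc3 showed the largest difference of any member higher in the Atf4 line, 2.42 ± 0.40, at levels under 1 CPM. Several small differences rested on single libraries. For Col9a3 (0.10 ± 0.03, edgeR adjusted p = 0.028) the call ended without Atf3 replicate 2, 4 or 5 or Atf4 replicate 3 (adjusted p of 0.05 to 0.078). For Col15a1 (-0.52 ± 0.19) it ended without Atf3 replicate 1 or 2 or Atf4 replicate 2 or 5 (0.055 to 0.11), and for Itga7 (-0.46 ± 0.16) without Atf3 replicate 1, 2 or 5 or Atf4 replicate 2, 4 or 5 (0.053 to 0.073). Col20a1 (0.35 ± 0.14, adjusted p = 0.047) and Col23a1 (0.25 ± 0.09, adjusted p = 0.038) lost the call in 10 and 7 of the 15 fits that left out 1 library.

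The make-up of each family was taken as the share of its summed CPM per kb, and it moved for the collagens and integrins. By merged exon lengths, the 4 leading control collagens, Col4a1, Col9a3, Col4a5 and Col4a2, made up 20.6%, 17.2%, 16.6% and 10.6% of the collagen sum there. In the Atf3 line Col4a1 stood at 11.4 ± 0.545%, while Col9a3 led with 24.4 ± 1.08% and Col16a1 had gone from 6.01 ± 0.287% to 15.1 ± 0.807%. Col27a1 went from 8.74 ± 0.431% to 1.85 ± 0.401% in Atf3 cells and 2.64 ± 0.681% in the Atf4 line. Its level depends on the length used, since with exons of protein-coding transcripts only it held 12.7, 2.71 and 3.88% in the control, Atf3 and Atf4 lines and was above Col4a2, at 9.26%, in control. The Atf4 line resembled the Atf3 line for Col9a3 (24.3 ± 1.21%) and Col16a1 (13.3 ± 0.897%). Laminin shares moved little, with Lamc1 at 73.7, 75.3 and 70.7% in the control, Atf3 and Atf4 lines. Among integrins, Itgb1 went from 72.7 ± 0.769% to 82.3 ± 0.727% and 79.6 ± 0.711%, and Itgb8 from 14.4 ± 0.546% to 6.9 ± 0.617% and 8.15 ± 0.756%. The summed collagen level was 89.4 ± 3.49, 70.1 ± 2.40 and 75.2 ± 3.25 CPM per kb in the 3 lines, that of laminins 131 ± 9.30, 115 ± 7.27 and 118 ± 14.4, and that of integrins 253 ± 5.86, 318 ± 2.24 and 275 ± 7.09. These sums and shares are descriptions with no test.

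**Figure D4:**
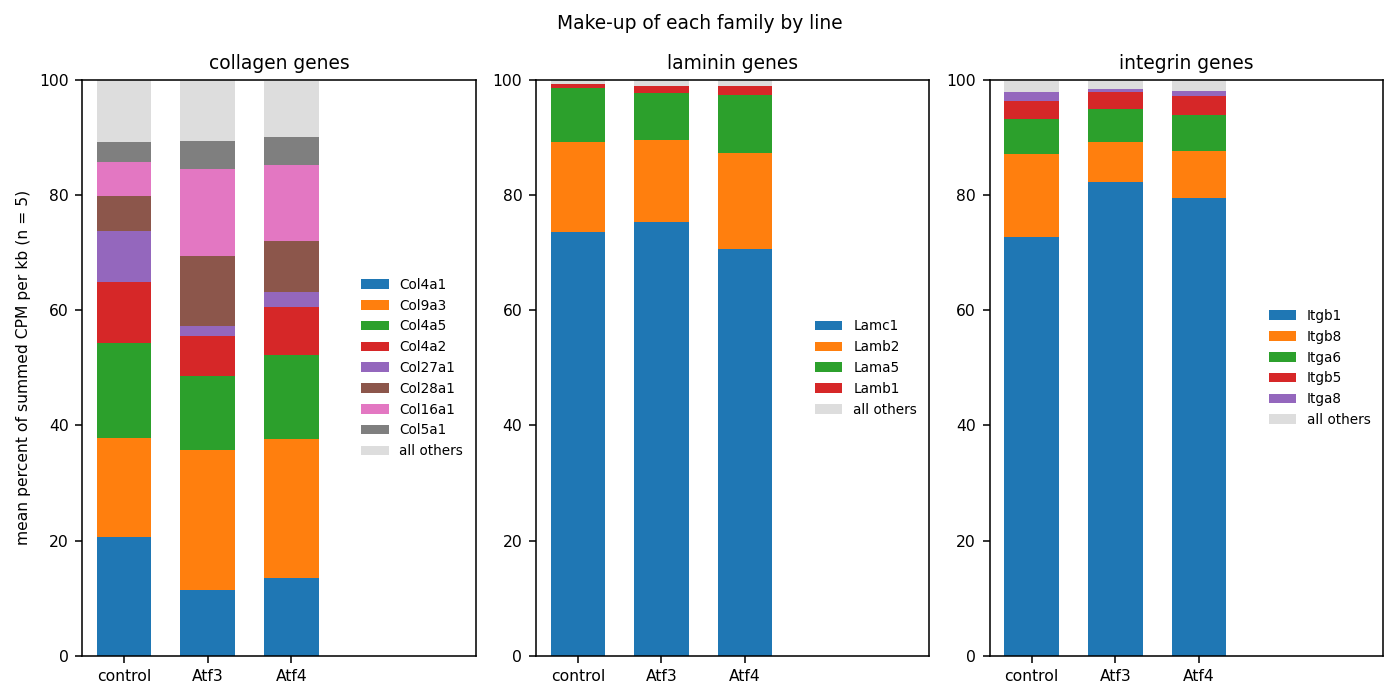
Mean percent of each family's summed CPM per kb (n = 5 libraries) held by its leading members in the control, Atf3 and Atf4 lines, stacked to 100. Col4a1 narrows from 20.6% to 11.4% and 13.4%, Itgb1 widens from 72.7% to 82.3% and 79.6%, and Lamc1 holds over 70% of the laminin sum in each line.

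Genes that work with these chains were taken from 6 lists of 153 genes in all. Of the enzymes and chaperones that fold, modify and crosslink collagen, 14 rose (53.8%) and 10 fell (38.5%) in Atf3 cells and 14 rose (53.8%) and 8 fell (30.8%) in the Atf4 line, of 26 tested. Of all genes, for this and the lists below, 36.8% rose and 36.3% fell in Atf3 cells and 31.9% and 29.7% in the Atf4 line. Their median log2 fold changes were 0.19 and 0.17, while those of the collagens were -0.97 and -0.59. Crtap, a subunit of the prolyl 3-hydroxylase complex, rose from 31.9 ± 1.17 CPM to 65.1 ± 3.70 CPM and 61.5 ± 1.93 CPM, and Colgalt1, which adds sugars to collagen, from 103 ± 2.24 CPM to 176 ± 10.8 CPM and 164 ± 6.98 CPM. Pcolce, an enhancer of procollagen processing, rose from 6.52 ± 0.520 CPM to 12.7 ± 0.679 CPM and 13.7 ± 0.617 CPM. Loxl2, a crosslinking oxidase, fell from 4.41 ± 0.247 CPM to 1.10 ± 0.1998 CPM and 1.84 ± 0.262 CPM, and the procollagen protease Bmp1 from 304 ± 4.83 CPM to 234 ± 10.0 CPM and 244.5 ± 13.2 CPM. P3h4 fell from 6.814 ± 0.2646 CPM to 3.294 ± 0.3593 CPM and 4.165 ± 0.5166 CPM.

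Other matrix glycoproteins went both ways. Of 32 tested, 11 were higher (34.4%, against 36.8% of all genes) and 14 lower (43.8%, against 36.3%) in Atf3 cells, and 10 were higher (31.2%, against 31.9%) and 14 lower (43.8%, against 29.7%) in the Atf4 line. The shares higher were thus near those of all genes. Ntn4, a netrin that binds laminin, rose from 24.4 ± 1.79 CPM to 77.1 ± 4.69 CPM and 50.7 ± 6.87 CPM, and Matn2, a matrilin, from 21.4 ± 0.964 CPM to 50.6 ± 4.66 CPM and 50.8 ± 5.47 CPM. Tnr, the brain tenascin, fell from 35.5 ± 3.56 CPM to 4.69 ± 0.666 CPM and 8.16 ± 1.07 CPM, and Smoc1, a basement membrane protein, from 74.8 ± 2.62 CPM to 8.90 ± 1.32 CPM and 23.2 ± 6.01 CPM.

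Of the non-integrin receptors of collagen and laminin and the enzymes that glycosylate dystroglycan, 12 rose (66.7%) and 5 fell (27.8%) in Atf3 cells and 14 rose (77.8%) and 3 fell (16.7%) in the Atf4 line, of 18 tested. The median log2 fold changes were 0.27 and 0.20. The syndecan gene Sdc1, a cell-surface proteoglycan, rose from 26.1 ± 0.874 CPM to 56.5 ± 3.29 CPM and 56.8 ± 2.72 CPM. Mcam, an adhesion receptor for laminin, fell from 27 ± 0.791 CPM to 10.2 ± 0.912 CPM and 16.9 ± 2.43 CPM, and the collagen-binding kinase gene Ddr1 from 424 ± 5.85 CPM to 339 ± 24.3 CPM and 352 ± 28.6 CPM.

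Of the proteins that couple integrins to actin and to signalling, 14 rose (41.2%) and 10 fell (29.4%) in Atf3 cells and 10 rose (29.4%) and 14 fell (41.2%) in the Atf4 line, of 34 tested. These shares were close to those of all genes for rises, and lower with Atf3 and higher with Atf4 for falls. Ptk2, which encodes focal adhesion kinase, rose from 72.2 ± 1.58 CPM to 166 ± 10.2 CPM and 109 ± 12.7 CPM, and the kinase gene Fyn from 344 ± 10.9 CPM to 638 ± 11.8 CPM and 472 ± 19.7 CPM. The adaptor gene Tns1 fell from 44.5 ± 1.98 CPM to 19.6 ± 1.68 CPM and 32.5 ± 2.35 CPM, and the actin crosslinker gene Actn1 from 51.8 ± 2.12 CPM to 24.9 ± 3.23 CPM and 31.4 ± 2.35 CPM. Of the integrin chains outside the symbol rule, 4 of 7 were tested, of which 2 rose (50%) and 1 fell (25%) in Atf3 cells and 1 rose (25%) and 2 fell (50%) in the Atf4 line. Itgae fell in both lines (-1.36 ± 0.11 and -0.59 ± 0.10). Itga2b rose in the Atf3 line (0.26 ± 0.10, edgeR adjusted p = 0.026) and fell in the Atf4 line (-0.32 ± 0.10, edgeR adjusted p = 0.01). Itgav, the alpha v chain, rose from 141.5 ± 5.27 CPM to 206 ± 14.4 CPM and 189.8 ± 21.3 CPM, whereas of its partners Itgb5 rose and Itgb8 and Itgb3 fell in both lines.

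Of the matrix proteases and their inhibitors, 10 rose (52.6%) and 7 fell (36.8%) in Atf3 cells and 8 rose (42.1%) and 6 fell (31.6%) in the Atf4 line, of 19 tested. Mmp15, a membrane-bound metalloprotease, rose from 248 ± 12.6 CPM to 728 ± 47.8 CPM and 515 ± 43.7 CPM, and Adam12 from 136 ± 10.6 CPM to 455 ± 24.0 CPM and 488 ± 72.6 CPM. The protease inhibitor gene Serpine2 rose from 2420 ± 73.4 CPM to 4121 ± 69.9 CPM and 3511 ± 69.8 CPM. Plat, tissue plasminogen activator, fell from 418 ± 15.5 CPM to 269 ± 7.20 CPM and 335 ± 18.8 CPM, and Adamts4, an aggrecan-cleaving protease, from 164 ± 4.05 CPM to 89.9 ± 9.08 CPM and 82.5 ± 8.94 CPM. For every partner gene given with values except Itga2b, the edgeR adjusted p was 0.00018 or less against control in both lines.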

How the data were processed

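RNA of 15 libraries, 5 per line, was sequenced on an Illumina NovaSeq after library preparation with a NEBNext Ultra kit that does not mark strand, per the labels' protocols. The file deposited by the authors gives unnormalized whole-number counts for 55416 Ensembl gene identifiers. The submitters' processing notes name STAR, edgeR and mm10. The tool versions, counting program, annotation release and strand setting were not given in the sources used here. Symbols and coordinates came from GENCODE M21 (GRCm38), which matched 52135 identifiers, and the 3281 others held at most 0.208% of a library's counts.

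Line and replicate number were taken from the library titles. Libraries of one line differed beyond sampling noise (chi-square per degree of freedom 5.47 to 53.4), so each counted as 1 sample. The analysis used R 4.3.3 and edgeR 4.0.16 (TMM scaling, filterByExpr, quasi-likelihood test, all 15 libraries in 1 fit with a coefficient per line). Benjamini-Hochberg adjustment covered all 18244 tested genes, and a gene was called at an adjusted p under 0.05. CPM values use TMM-scaled totals. Lengths are merged annotated exons. Standard errors are the absolute log2 fold change over the root of F. The scripts were tested on simulated counts with known changes.

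The members and lists were chosen with earlier results of these data known. Values in every library are given for up to 4 rises and 4 falls per family and comparison with control among called members of at least 1 CPM without overlap of the lines, for up to 4 each way between the Atf4 and Atf3 lines, and for 18 members whatever their result. The other tested members are given by line means or log2 fold changes, and Col4a5 was added because of its level. From each partner list up to 2 genes in each direction per comparison with control were picked by the smallest adjusted p, and the text may not give all of them. Alternatives were RLE scaling and plain totals, DESeq2 1.42.0, limma-voom (limma 3.58.1), both filters, fits of 2 lines only, a replicate block and fits without single libraries. Labels give no sequencing batch or date. The values of 1 member and 1 marker are not reported here, though both are included in the counts and sums.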

Additional observations from a re-analysis of the deposited data

Results flagged for a closer look

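Of 99 sets of 5 libraries (33 members in 3 lines) examined for a single library far from the others with Dixon's 95% critical value, chance alone gives about 1 in 20, and 2 stood out. Lama2 in Atf3 replicate 2 was at 1.27 CPM while the other Atf3 libraries were at 1.02 to 1.09 CPM, a gap of 0.734 of the range. Itgb1 in Atf4 replicate 2 was at 850 CPM while the other Atf4 libraries were at 901 to 916 CPM, a gap of 0.776 of the range. That library was still above all control libraries and below all Atf3 libraries of Itgb1.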

How the results depend on the processing

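Over all alternatives the members higher and lower kept the same majority: 12 to 17 and 24 to 37 with Atf3, 12 to 15 and 18 to 28 with Atf4, and 18 to 25 and 7 to 10 between the Atf4 and Atf3 lines. The lowest of these for members lower against control come from the filter at 1 CPM, which tests 41 members. Among the 58 members tested with all libraries, leaving out 1 library at a time gave 15 to 16 and 33 to 35, 13 to 15 and 25 to 28, and 18 to 24 and 7 to 10. The filter was set anew in each fit and could add Col13a1 and Col26a1, and with these counted in, the ranges were 15 to 16 and 33 to 37, 13 to 15 and 25 to 28, and 19 to 25 and 7 to 10. No called member was called in the opposite direction under any alternative. Members with a change near 0 and no call turned sign. For Lama2 in the Atf3 line it was 0.02 without a filter and -0.06 to 0.06 without single libraries. Lama5 in the Atf4 line ranged from -0.18 to 0.03 without single libraries. Between the Atf4 and Atf3 lines Col5a2 ranged from -0.04 to 0.06, Lamc1 from -0.11 to 0.02 and Itga8 from -0.11 to 0.03. With plain library totals Col16a1 was at 0.02, Lamc1 at 0.05 and Itga8 at 0.05 there. The cause was not tested.

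Replicate numbers did not pair the libraries, since libraries of equal number correlated at -0.191 to 0.195 in their deviations from the line means, and not every library correlated best with its own number. The highest correlation, 0.467, was between libraries of unlike number of the Atf4 and Atf3 lines. Structure shared across lines under unlike numbers was not tested. With a replicate block 15 members were higher and 34 lower with Atf3, 13 and 26 with Atf4, and 20 and 9 between the Atf4 and Atf3 lines. Family shares depend on the lengths used. With exons of protein-coding transcripts only, Col4a1 held 19.6% of the collagen sum in control, Col9a3 18.5, 26.5 and 26.4% for the control, Atf3 and Atf4 lines, and Col4a5 14.5, 11.2 and 12.8%, and Col27a1 ranked above Col4a2 in control. Lama5 held 8.62% and 7.47% of the laminin sum in the control and Atf3 lines. Itgb1 held 67.5, 78.1 and 75.1%, Itgb8 16.8, 8.23 and 9.66% and Itga6 8.68, 8.29 and 8.86% of the integrin sum. Counts limit what can be said of the 16 untested members, which had at most 22 counts in a library.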
